A study of Caenorhabditis elegans with 24 samples.

Results

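In embryos of the nematode Caenorhabditis elegans, 31 of 20687 worm genes were chosen for a sharp peak of messenger RNA at 410 min after the 4-cell stage. They were chosen by their measured levels in CPM, the counts of a gene per 1000000 worm counts of its library, averaged over the 3 libraries of a stage. A chosen gene had its highest stage mean at 410 min, a mean of at least 100 CPM there, and a mean at least 3-fold above those at 270 min and at 500 min, with 1 CPM added to every mean before a ratio was taken. Of the 1781 genes with their highest mean at 410 min, 450 reached 100 CPM, 182 of these were 3-fold above 270 min, 42 were 3-fold above 500 min, and 31 met both conditions. All 31 are annotated as protein coding, 16 have a gene symbol and 15 are known in the annotation by a sequence name alone.

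The wild-type strain N2 was collected at 8 stages, the first at 60 min and later ones at 120, 180 and 225 min, then at 270, 330 and 410 min and finally at 500 min. Each stage had 3 libraries, and each library was made from 50 pooled embryos that had been dissected out of adults. The measurement was CEL-Seq, which tags and sequences the 3′ ends of polyadenylated transcripts, so counts are not spread along a gene and were not divided by its length. No treatment or mutation enters the design, so each comparison is between a later and an earlier stage of whole embryos. In such RNA, more cells of a type and more message per cell cannot be told apart.

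Midway through its development the worm embryo is wrapped in a single-layered epidermis, which then squeezes a ball of cells into a long thin larva. Contraction of actin bundles drives the lengthening, while cadherin and claudin-like proteins hold the epithelium together. Late in this process the epidermis secretes the first cuticle, a sheath of collagens under a temporary outer matrix, and organs such as the pharynx are completed. Several of the 31 genes have known roles in these processes. The annotation used gives names and positions but no roles, and 15 of the genes carry a sequence name alone.

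Worm counts ran from 172620 to 977908 per library, with a median of 423142, and from 214206 to 462841 in the 3 libraries of 410 min. A single count was therefore worth 2.61, 2.16 and 4.67 CPM in replicates 1, 2 and 3 of 410 min. No value in the table exceeded 1023 counts, and large values may be compressed. Among the 31 genes, dpy-10 alone passed 500 counts in any library, with a highest value of 801. Together the 31 genes held 321, 255 and 394 CPM in replicates 1, 2 and 3 of 225 min, 1214, 1518 and 2507 CPM at 270 min, 4551, 5726 and 3755 CPM at 330 min, 12620, 12220 and 13590 CPM at 410 min, and 2955, 2286 and 2529 CPM at 500 min. At 60 to 180 min their sum was 57.9 to 157.5 CPM. At 410 min they made up 1.22 to 1.36% of the worm counts. Replicate 3 of 270 min stood apart from its stage: it was the highest of the 3 libraries for 28 of the 31 genes, against 29.8% of all genes tested. At 330 min, replicate 2 was the highest for 22 genes and replicate 3 the lowest for 20.

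**Figure D1:**
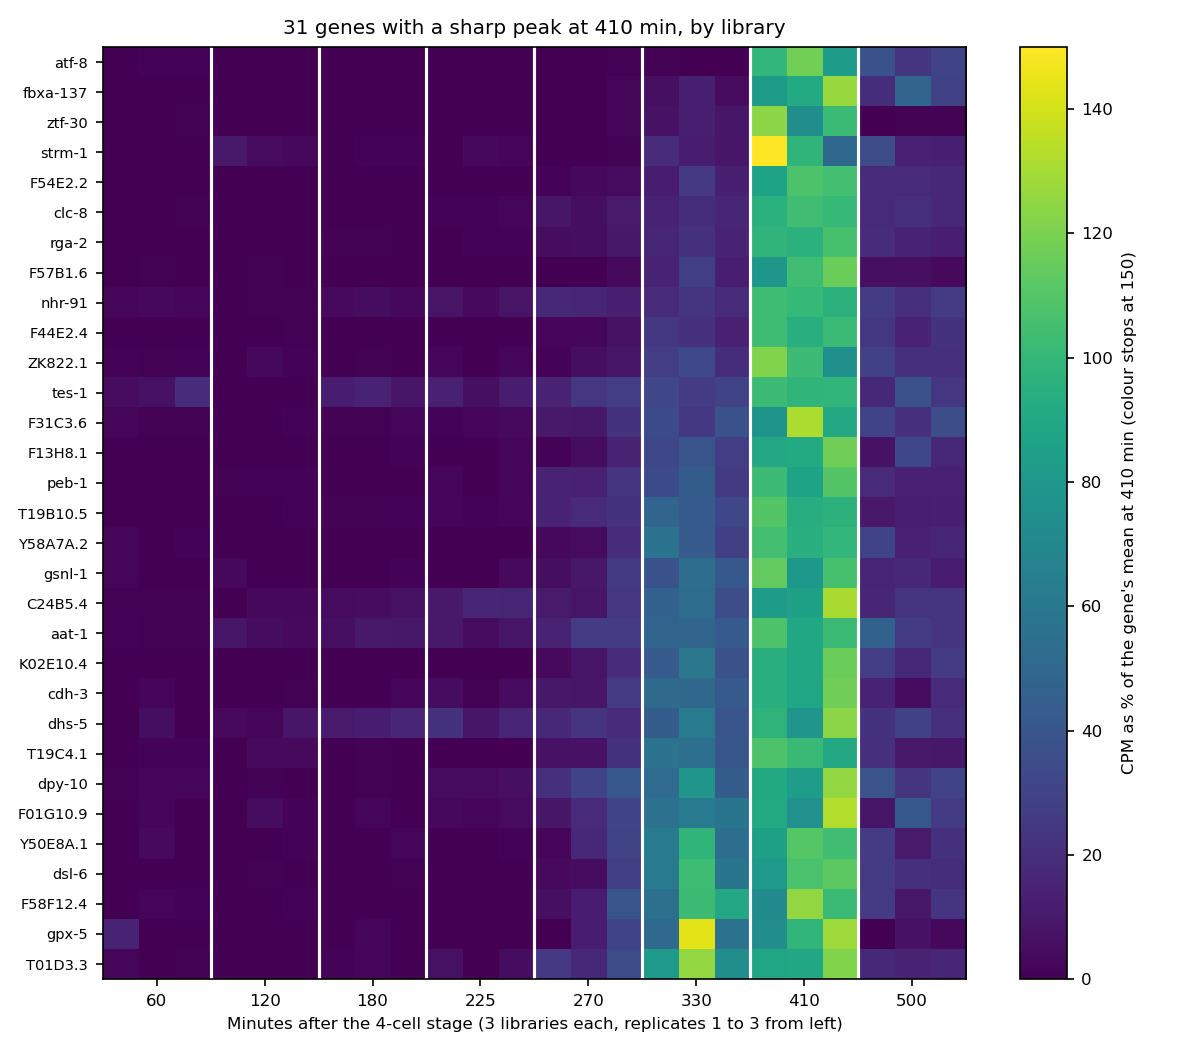
Level of each of the 31 genes in each of the 24 libraries, as a percentage of the gene's mean at 410 min, with stages in columns (minutes after the 4-cell stage, 3 libraries each) and genes in rows ordered by the share already reached at 330 min. The rows run from atf-8, with 0.637% at 330 min, to T01D3.3, with 93.4%.

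The shape of the peak differed among the genes. The selection set no threshold at 330 min but bounded the shares at 270 and 500 min, so the ranges at these stages are not comparable. The mean at 330 min was between 0.637% and 93.4% of that at 410 min, with a median of 41.5%. It was under 10% for atf-8, fbxa-137 and ztf-30, and at or above 50% for 8 genes. On the late side, where the selection required a 3-fold difference, the mean at 500 min was 0.529% to 32.7% of that at 410 min, with a median of 20.1%. For 24 genes the next highest stage was 330 min, and for 7 it was 500 min, namely F44E2.4, clc-8, atf-8, nhr-91, F54E2.2, strm-1 and fbxa-137. The mean at 500 min exceeded the mean at 225 min for all 31 genes and the mean at 270 min for 24 of them. The selection used the means at 270 and 500 min, and the share over all genes was not computed. These counts are therefore a description and say nothing about the 31 genes as a set. In 29 genes the 410 min library was the highest of its replicate series in all 3 series, and in T01D3.3 and gpx-5 in 2 series. For dsl-6, T01D3.3, gpx-5, Y50E8A.1 and F58F12.4 the libraries of 410 and 330 min overlapped, so the word sharp describes only the late side of these 5 genes.

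**Figure D2:**
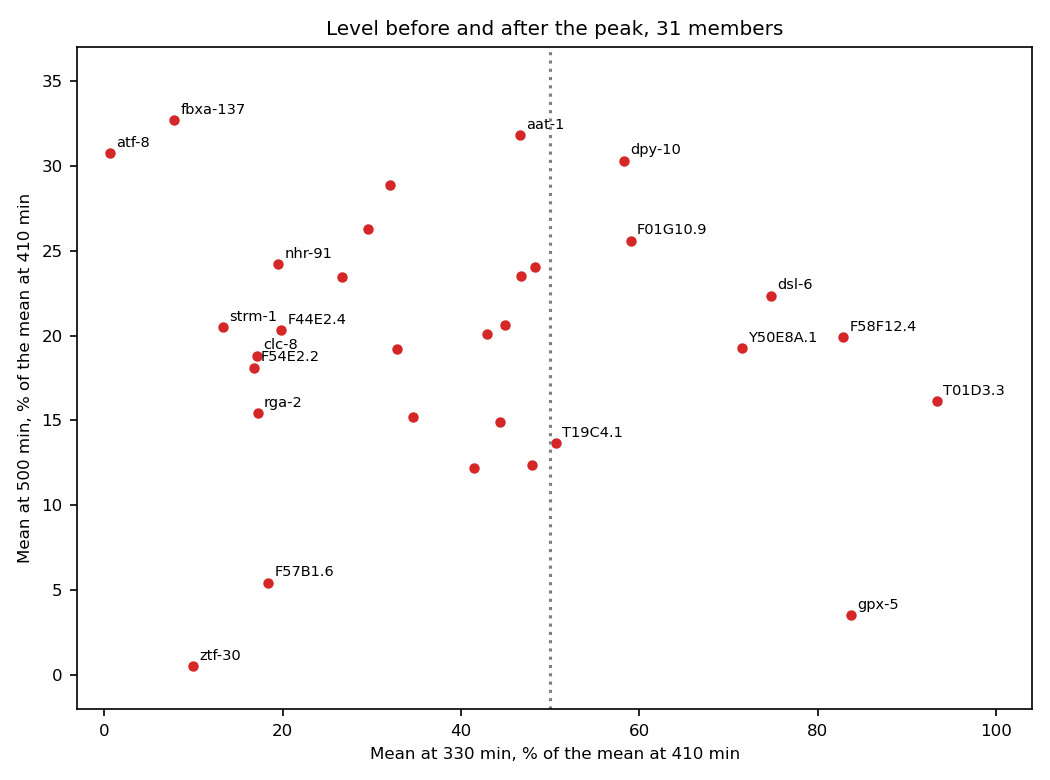
Mean at 500 min (vertical axis) against mean at 330 min (horizontal axis), each as a percentage of the mean at 410 min, with 1 point per gene and a dotted line at 50%. The genes spread from 0.637% to 93.4% along the horizontal axis and lie at or under 32.7% on the vertical axis, which the selection bounds.

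The genes on each side of a threshold are given by the value that placed them. By mean at 410 min, F58F12.4 with 105 CPM, F01G10.9 with 105.5 CPM and Y50E8A.1 with 107 CPM were the lowest genes inside. B0205.4 with 98.0 CPM, K02G10.15 with 85.4 CPM and Y22D7AL.9 with 85.2 CPM met the other conditions and lay outside. By ratio to 270 min, dpy-10 with 3.26, T01D3.3 with 3.86 and aat-1 with 4.38 were nearest inside. Outside stood fbxo-11.2 with 2.66, let-502 with 2.60, and mlt-11, a predicted protease inhibitor needed for molting, with 2.39. By ratio to 500 min, fbxa-137 with 3.01, aat-1 with 3.11 and atf-8 with 3.24 were nearest inside, and gly-6 with 2.99, lron-8 with 2.90 and R12C12.5 with 2.79 nearest outside.

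**Figure D3:**
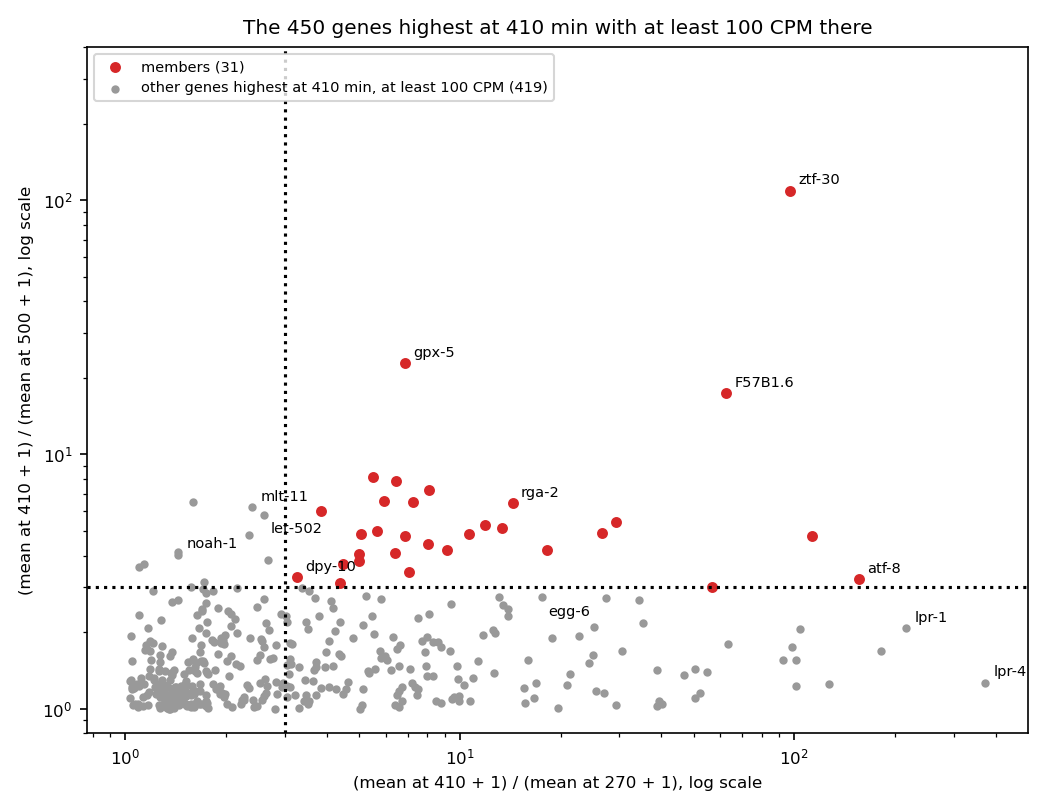
Ratio of the mean at 410 min to that at 270 min (horizontal axis) and at 500 min (vertical axis), both on log scales with 1 CPM added, for the 450 genes with their highest mean at 410 min and at least 100 CPM there. Red points above and right of the dotted lines at 3 are the 31 chosen genes, grey points the other 419. Most of the genes past the horizontal threshold lie under the vertical one, as 151 were 3-fold above 270 min alone and 11 were 3-fold above 500 min alone.

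All 31 genes were already higher at 330 min than at 225 min. The selection set no threshold of its own on this comparison, but a choice of genes 3-fold above 270 min at 410 min favours such a rise. The share over all genes tested is therefore not a like comparison. By edgeR's quasi-likelihood test with Benjamini-Hochberg adjustment over the 8279 genes tested, all 31 genes passed the filter on low counts and all 31 rose, against 19.9% of all genes tested. Of these, atf-8, fbxa-137, strm-1 and ztf-30 passed the filter only through libraries of other stages: in a fit to the 6 libraries of 330 and 225 min they were not tested, and the other 27 rose. None of the 31 fell, against 11.8% of all genes tested. Of the other 419 genes with their highest mean at 410 min and at least 100 CPM, 293 (69.9%) rose, and of the 151 genes that were 3-fold above 270 min but not above 500 min, 139 (92.1%) rose. The median log2 change was 4.55 over the 31 genes, 4.16 over the 151 genes and 0.07 over all genes tested. Of the 31 genes 9 had 0 counts in all libraries of 225 min, and with these at their lower bound the median was 3.96 over the 31 genes and 3.83 over the 151. The log2 changes ran from 1.53 ± 0.41 (SE) for tes-1 to 9.02 ± 0.85 for K02E10.4, a fitted value that depends on the prior count since that gene had 0 counts at 225 min. All 3 libraries of 330 min lay above all 3 of 225 min for all 31 genes, against 24% of genes tested and 304 (72.6%) of the other 419 genes. The call for atf-8 (adjusted p = 0.0432 by edgeR) was lost whenever any single library of 330 or 225 min was left out, and those for tes-1 and fbxa-137 were lost without replicate 2 (adjusted p = 0.0746 and 0.0612 by edgeR).

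**Figure D4:**
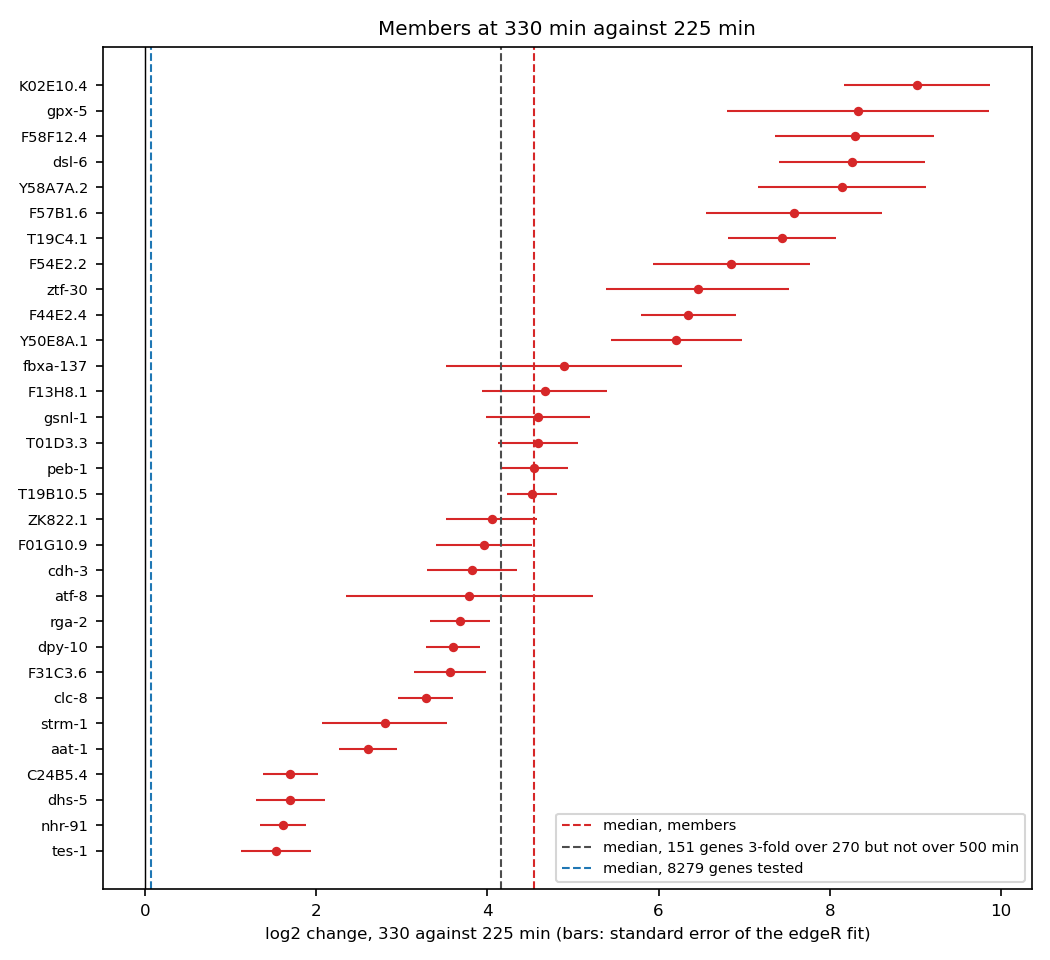
Log2 change at 330 min against 225 min for each of the 31 genes, with bars of 1 standard error from the edgeR fit to all 24 libraries. All points lie right of 0, from 1.53 to 9.02, and the dashed lines mark the medians of the 31 genes (4.55), of the 151 genes 3-fold above 270 min alone (4.16) and of the 8279 genes tested (0.07).

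Up to and at 225 min most of the genes were near or at 0. Of the 31, 19 had a mean under 10 CPM at each of 60, 120, 180 and 225 min, and K02E10.4, F54E2.2 and fbxa-137 had 0 counts in all 12 of these libraries. The matching shares over all genes were not computed, so these counts do not set the 31 genes apart. By edgeR's quasi-likelihood test with Benjamini-Hochberg adjustment, 8 genes (25.8%) were higher at 225 min than at 60 min, near the 29.5% of genes tested. Only 1 was lower, against 26.6%. The 8 were T19B10.5 (log2 change 4.43), C24B5.4 (3.81), peb-1 (2.84), dhs-5 (2.79), aat-1 (2.74), rga-2 (2.43), dpy-10 (1.36) and nhr-91 (1.34). The gene that fell was atf-8, which had 0, 0 and 0 counts at 225 min, against 0, 4 and 6 counts at 60 min. With 225 min set at the floor of 3 counts over the group the ratio was 2.96. That value takes the few counts of 60 min as observed, so it is not a lower limit. These counts are small: at 225 min they were 4, 0 and 12 for peb-1 and 1, 6 and 10 for rga-2. A gene can pass the filter on low counts through any stage, and atf-8 passed it only through later ones. Fitted to the 6 libraries of the 2 stages alone, with the filter on these, 2 genes were higher and 0 lower. Without replicate 3 the call for atf-8 was lost. Nothing about the 31 genes as a set is read from these calls.

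The genes whose products lie at or outside the cell surface were led by dpy-10, a cuticle collagen whose mutants are dumpy and roll. All coordinates given are those of the annotated gene in the WBcel235 assembly, and dpy-10 stands on chromosome II, 6710149 to 6712227 on the minus strand with 5 exons. Its level was 79.3, 86.7 and 112.2 CPM in replicates 1, 2 and 3 of 225 min, 384, 558.5 and 764 CPM at 270 min, 974, 1450 and 819 CPM at 330 min, 1690, 1549 and 2330 CPM at 410 min, and 709, 415 and 564 CPM at 500 min. All 3 libraries of 410 min lay above those of every other stage, by a narrow margin over replicate 2 of 330 min. Its rise at 330 min against 225 min was 3.60 ± 0.32 on the log2 scale (SE; adjusted p = 1.81e-10 by edgeR), and 4.20 after a correction for identifier collisions, which raises large counts. dpy-10 had the lowest ratio of 410 to 270 min of the 31 genes, 3.26, and dropped out under 6 of the 20 alternatives that kept the selection's thresholds.

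clc-8 (chromosome IV, 14394138 to 14400376 on the plus strand) is a claudin-like gene of a family that includes tight junction proteins, and had the steepest course of the surface genes between 330 and 410 min. Its level was 10.8, 10.5 and 16.03 CPM at 225 min, 110.5, 145 and 120 CPM at 330 min, 699, 758 and 733 CPM at 410 min, and 134, 152 and 126 CPM at 500 min. The libraries of 330 and 500 min overlapped each other and lay far under those of 410 min. It rose at 330 min against 225 min by 3.28 ± 0.32 (log2; adjusted p = 4.4e-10 by edgeR).

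dsl-6 (chromosome IV, 11396765 to 11398317 on the minus strand) belongs to the DSL family, whose best known worm members are ligands of Notch receptors. It had 0, 0 and 1.603 CPM at 225 min, 260, 429 and 242 CPM at 330 min, 334, 445 and 467 CPM at 410 min, and 111, 85.3 and 82.1 CPM at 500 min. Replicate 2 of 330 min exceeded replicate 1 of 410 min, so the libraries of the 2 stages overlapped. Its rise at 330 min against 225 min was 8.26 ± 0.85 (log2; adjusted p = 1.03e-07 by edgeR). That value rests on 1 count in replicate 3 of 225 min, without which it was 10.1, and it was 7.51 without replicate 2 of every stage. cdh-3, a Fat-related cadherin that takes part in epithelial morphogenesis, had 118, 113 and 96.1 CPM at 330 min, 214, 201 and 266 CPM at 410 min and 32.4, 11.5 and 40.2 CPM at 500 min. Its 3 stages did not overlap, and it rose at 330 min against 225 min by 3.82 ± 0.53 (log2; adjusted p = 6.35e-07 by edgeR).

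rga-2, gsnl-1 and tes-1 are described together for their known roles on actin or in the epidermis, with no list behind the grouping. rga-2 (chromosome I, 11979401 to 11985619 on the plus strand) acts in the epidermis while the embryo lengthens. It had 3.61, 15.8 and 16.03 CPM at 225 min, 149, 203 and 140 CPM at 330 min, 934, 910 and 1013 CPM at 410 min, and 181, 142 and 118.7 CPM at 500 min. The 3 libraries of 410 min agreed within a narrow range and stood far above the overlapping libraries of 330 and 500 min. It rose at 330 min against 225 min by 3.68 ± 0.35 (log2; adjusted p = 3.48e-10 by edgeR). gsnl-1, a gelsolin-like protein that severs actin filaments, had 66.7, 94.7 and 72.6 CPM at 330 min, 201, 140 and 187 CPM at 410 min and 27.8, 29.96 and 20.9 CPM at 500 min. It rose at 330 min against 225 min by 4.59 ± 0.61 (log2; adjusted p = 2.51e-07 by edgeR). Its counts at 225 min were 0, 0 and 4, and without replicate 3 of 225 min the log2 change was 8.09, and without replicate 2 of every stage 3.94. tes-1, a testin LIM-domain protein of epidermal junctions, was the most even at its peak, with 136, 130 and 131 CPM at 410 min, against 42.1, 34.2 and 40.9 CPM at 330 min. It was counted in every library from 180 min on, and its log2 change at 330 min against 225 min was 1.53 ± 0.41 (adjusted p = 0.00362 by edgeR).

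**Figure D5:**
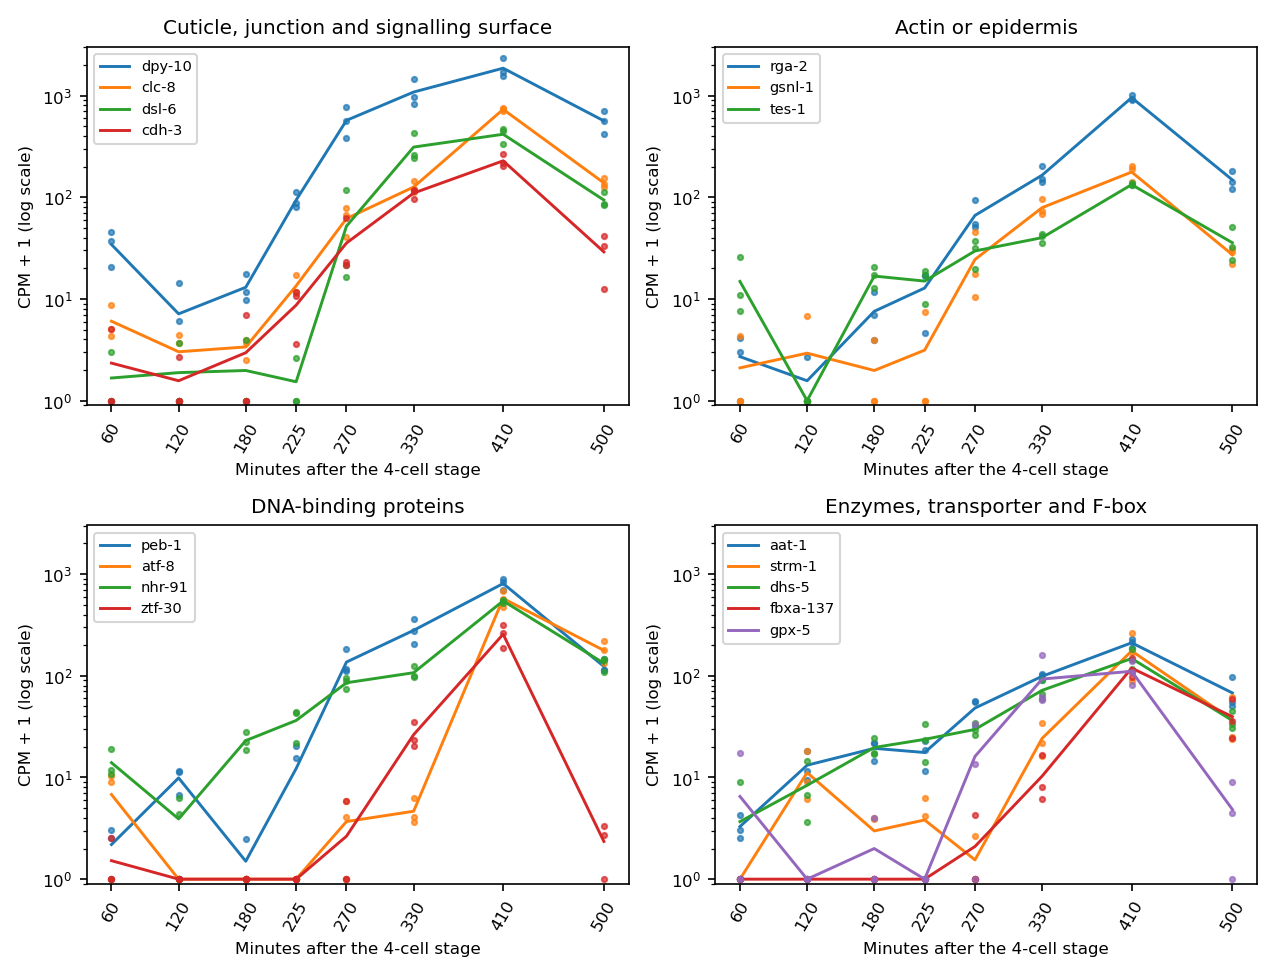
Time courses of the 16 genes with a symbol, grouped by known or predicted role, as CPM + 1 on a log scale against minutes after the 4-cell stage. Points are libraries and lines join stage means. At 410 min the means run from 109.6 CPM for gpx-5 to 1856 CPM for dpy-10.

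There were 4 genes that encode proven or predicted DNA-binding proteins. peb-1 (chromosome X, 2211051 to 2218988 on the plus strand) encodes a FLYWCH-type zinc finger protein of the pharynx that is also needed for molting. It had 14.4, 0 and 19.2 CPM at 225 min, 272, 358 and 205.5 CPM at 330 min, 829, 700 and 887 CPM at 410 min, and 144, 111.8 and 111.7 CPM at 500 min. All libraries of 410 min lay above those of 330 min, and those above 500 min. It rose at 330 min against 225 min by 4.55 ± 0.39 (log2; adjusted p = 4.75e-11 by edgeR), with values of 5.45 without replicate 3 of 225 min and 3.76 without replicate 2 of every stage. nhr-91, a nuclear hormone receptor, was counted in all 3 libraries of 60 min and had 96.5, 124 and 98.2 CPM at 330 min, 561, 547 and 523 CPM at 410 min and 144, 108 and 143 CPM at 500 min. Its mean was 106 CPM at 330 min, against 84.3 CPM at 270 min, and every library of 410 min lay above those of all other stages. It rose at 330 min against 225 min by 1.61 ± 0.27 (log2; adjusted p = 1.39e-05 by edgeR).

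The other two DNA-binding genes were under 10% of their peak at 330 min. atf-8 (chromosome V, 6105607 to 6107530 on the plus strand) encodes a bZIP protein of the ATF family. It had 3, 1 and 3 counts at 330 min, equal to 5.26, 2.63 and 3.07 CPM, against 0 counts at 225 min. With 225 min set at the floor of 3 counts the ratio was 1.55. That value takes the few counts of 330 min as observed, so it is not a lower limit. At 410 min it had 219, 314 and 101 counts, equal to 571, 678 and 471.5 CPM, and at 500 min 218, 134 and 178 CPM. Its ratio of 410 to 270 min, 156, was the highest of the 31 genes. ztf-30 (chromosome III, 8595311 to 8597870 on the minus strand), named as a zinc finger gene, was low on both sides. It had 19.3, 34.2 and 22.5 CPM at 330 min, 316, 188 and 261 CPM at 410 min, and 0, 2.30 and 1.75 CPM at 500 min. Its ratio of 410 to 500 min, 109, was the highest of the 31 genes, and its mean at 410 min was 9.72 times that of the next highest stage, also the highest. It had 0 counts at 225 min and was at least 10.2-fold higher at 330 min (adjusted p = 1.7e-05 by edgeR). The call comes from the fit to all 24 libraries, since ztf-30 did not pass the filter in the 6 libraries of these stages.

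Another 5 genes encode enzymes, a transporter and an F-box protein. aat-1, the catalytic subunit of amino acid exchangers, had 102, 103 and 88.97 CPM at 330 min, 227, 188 and 215 CPM at 410 min and 97.3, 54.2 and 48.9 CPM at 500 min, and rose at 330 min against 225 min by 2.61 ± 0.34 (log2; adjusted p = 1.6e-07 by edgeR). dhs-5, a short-chain dehydrogenase, had the highest share of its peak present at 225 min, 15.5%. It had 64.9, 89.5 and 58.3 CPM at 330 min, 143, 115 and 182 CPM at 410 min and 32.4, 43.8 and 29.7 CPM at 500 min, with no overlap between these stages, and rose at 330 min against 225 min by 1.70 ± 0.40 (log2; adjusted p = 0.000894 by edgeR). strm-1 (chromosome III, 2402070 to 2406335 on the plus strand) encodes a sterol methyltransferase that acts on the precursors of steroid hormones. It had 33.3, 21.1 and 15.3 CPM at 330 min, 263, 171 and 88.7 CPM at 410 min and 60.2, 24 and 22.7 CPM at 500 min. Its 3 libraries of 410 min spread more widely than those of any other of the 31 genes, with a coefficient of variation of 50.2%, against 2.41% for tes-1. It rose at 330 min against 225 min by 2.80 ± 0.73 (log2; adjusted p = 0.00297 by edgeR), and by 2.08 without replicate 1 of every stage. Its counts at 225 min were 0, 2 and 2. The call comes from the fit to all 24 libraries, since strm-1 did not pass the filter in the 6 libraries of these stages.

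fbxa-137, an F-box gene, had 0 counts up to 225 min and 4, 6 and 5 counts at 330 min. It then had 96.5, 108 and 149 CPM at 410 min, and 23.2, 57.6 and 34.9 CPM at 500 min. At 330 min against 225 min it was higher (adjusted p = 0.00683 by edgeR). With 225 min set at the floor of 3 counts the ratio was 3.32. That value takes the few counts of 330 min as observed, so it is not a lower limit. The call comes from the fit to all 24 libraries, since fbxa-137 did not pass the filter in the 6 libraries of these stages. gpx-5, a glutathione peroxidase, had the reverse shape, early and closely bounded at the end. It had 56.1, 158 and 61.4 CPM at 330 min, 80.9, 108 and 140 CPM at 410 min, and 0, 8.07 and 3.49 CPM at 500 min. Replicate 2 of 330 min was above all libraries of 410 min, and the rise at 330 min against 225 min was at least 33.7-fold (adjusted p = 0.000484 by edgeR).

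T19B10.5, F44E2.4 and T19C4.1 had the highest means at 410 min of the 15 genes without a symbol. T19B10.5 had 25.2, 15.8 and 24.04 CPM at 225 min, 565, 500.0 and 370 CPM at 330 min, 1270, 1078 and 1111 CPM at 410 min, and 120, 147.5 and 154 CPM at 500 min. Its rise at 330 min against 225 min had the lowest adjusted p of the 31 genes (log2 4.52 ± 0.29, adjusted p = 5.89e-14 by edgeR). F44E2.4 had 3.61, 2.63 and 1.603 CPM at 225 min, 249, 224 and 142 CPM at 330 min, 1067, 977 and 1055 CPM at 410 min, and 250.1, 154 and 225 CPM at 500 min, with libraries of 330 and 500 min that overlapped. T19C4.1 had 342, 329 and 242 CPM at 330 min, 649, 609 and 546 CPM at 410 min, and 125, 62.2 and 59.4 CPM at 500 min. F44E2.4 and T19C4.1 rose at 330 min against 225 min by 6.35 ± 0.56 and 7.44 ± 0.63 (log2; adjusted p = 1.02e-09 and 4.24e-10 by edgeR). Both values rest on few counts at 225 min, 1, 1 and 1 for F44E2.4 and 0, 1 and 1 for T19C4.1. The mean of T19C4.1 was 15.06 CPM at 120 min, against 1.41 CPM at 225 min.

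K02E10.4 (chromosome X, 2483263 to 2488482 on the plus strand) had 0 counts up to 225 min, 133, 184 and 115 CPM at 330 min, 289.5, 277 and 359.5 CPM at 410 min, and 83.4, 54.2 and 80.3 CPM at 500 min. Against 225 min it was at least 57.2-fold higher at 330 min (adjusted p = 9.99e-09 by edgeR). F57B1.6 was the most closely confined of the unnamed genes at its end. It had 43.9, 84.2 and 37.8 CPM at 330 min, 240, 313 and 350.1 CPM at 410 min and 18.5, 18.4 and 12.2 CPM at 500 min, and was at least 20.8-fold higher at 330 min than at 225 min (adjusted p = 8.29e-07 by edgeR). T01D3.3 was the flattest at its top, with 143, 145 and 196 CPM at 410 min, against 130, 203 and 120 CPM at 330 min. C24B5.4, with 261, 270 and 411 CPM at 410 min, against 146, 166 and 111.5 CPM at 330 min, had counts in every library of 225 min and rose at 330 min against 225 min by 1.70 ± 0.32 (log2; adjusted p = 5.99e-05 by edgeR).

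The other 8 unnamed genes had means of 105 to 305 CPM at 410 min. F31C3.6, ZK822.1, F13H8.1 and F54E2.2 were at 16.8 to 32.9% of their peak at 330 min, and Y58A7A.2, F01G10.9, Y50E8A.1 and F58F12.4 at 43.0 to 82.9%. F58F12.4 and Y58A7A.2 had 0 counts at 225 min and were at least 37-fold and 31.2-fold higher at 330 min (adjusted p = 2.25e-08 and 2.62e-07 by edgeR). F54E2.2 had 24.6, 50.0 and 26.6 CPM at 330 min, 175, 216 and 210.1 CPM at 410 min and 37.1, 36.9 and 34.9 CPM at 500 min, and rose by at least 13.1-fold at 330 min against 225 min (adjusted p = 1.01e-06 by edgeR).

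Across the stages that chose the genes, the differences follow from the choice and are given as a description. Against 330 min, 26 of the 31 genes were higher at 410 min by edgeR at an adjusted p under 0.05, beside 18.8% of genes tested, and for the same number all 3 libraries of 410 min lay above all 3 of 330 min, beside 16.4%. Against 270 min 31 were higher and 0 lower, beside 26.1% and 17.2%, and all 3 libraries of 410 min lay above all 3 of 270 min for 31 genes, beside 22.8%. At 500 min 31 were lower than at 410 min, beside 7.38%, and all 3 libraries of 410 min lay above all 3 of 500 min for 31 genes, beside 17.9%. At 330 min 29 genes had all libraries above those of 270 min, beside 14.6%.

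The thresholds were also applied with 1 replicate series left out, and read in that series. The choice of the 31 genes itself used all 3 series. With replicate series 1 left out, the same thresholds chose 38 genes, of which 29 were among the 31. In the series left out, 24 of these 38 (63.2%) were again 3-fold above both 270 and 500 min, against 34 of the 2149 genes with at least 100 CPM at 410 min in that series (1.58%). Leaving out series 2 chose 30 genes, of which 21 (70%) met both ratios in series 2, against 54 of 2321 (2.33%). Leaving out series 3 chose 28 genes, of which 22 (78.6%) met both in series 3, against 30 of 2108 (1.42%). The shares are not strictly alike, as the chosen genes needed no 100 CPM in the series left out. The genes set beside them include chosen ones and were not limited to those highest at 410 min. The distance between the shares follows in part from this, and nothing about the 31 genes as a set is read from it. All conditions of the choice were met in the series left out by 21 of 38, 19 of 30 and 21 of 28 genes.

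The collagen, claudin-like, cadherin and nuclear hormone receptor families each contributed 1 gene to the 31. Of 43 tested cuticle collagens, 9 had their highest mean at 410 min (20.9%, against 9.41% of all genes tested) and dpy-10 was the only one of the 31. At 500 min against 410 min 14 of the 43 collagens rose and 6 fell by edgeR, with a median log2 change of 1.87, against 14.5% and 7.38% of all genes tested and a median of 0.04. Among the 9 highest at 410 min, the collagen genes dpy-2, dpy-3 and dpy-7, whose mutants are also dumpy, were lower at 500 min than at 410 min, with log2 changes of −1.18, −1.07 and −0.89 (adjusted p = 0.000956, 0.0156 and 0.00724 by edgeR). For dpy-14, dpy-17 and sqt-3 the log2 change at 500 min against 410 min was −0.17, −0.18 and −0.12 and did not pass, and each reached the table's highest value of 1023 counts. Of 18 tested claudin-like and tetraspanin genes, 7 were highest at 410 min. clc-8 had a ratio of 410 to 500 min of 5.28, against 1.67 for clc-6 and 1.58 for clc-5. Of 7 cadherins 2 were highest at 410 min, and of 80 nuclear hormone receptors 22 were.

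The list of cell fusion and epidermal shape genes, which holds the junction, actomyosin and hemidesmosome genes of the lengthening epidermis, had 13 of 22 tested genes highest at 410 min. At 330 min against 225 min 15 of them rose and 0 fell by edgeR, with a median log2 change of 1.31, against 0.07 for all genes tested. At 500 min against 410 min 9 fell and 0 rose, against 7.38% and 14.5% of all genes tested. None of the 22 was among the 31 genes. let-502, a gene needed for the lengthening, had a mean of 1201 ± 127 CPM (SD, n = 3) at 410 min, against 383 ± 20.7 CPM at 330 min and 461 ± 10.01 CPM at 270 min, and missed the choice by its ratio of 2.60 to 270 min. Among 19 tested genes of the temporary pre-cuticle matrix, 7 were highest at 410 min and 0 were among the 31. At 500 min against 410 min 9 of the 19 fell and 4 rose by edgeR, with a median log2 change of −1.07. Among the 7, noah-1, mlt-11 and egg-6 fell (log2 changes of −1.90, −2.45 and −1.33). The others, lpr-1, lpr-3, lpr-4 and lpr-5, did not pass the test (log2 changes of −0.91, −0.11, −0.2 and −0.35). The means of lpr-4 were 31.4 CPM in libraries of 330 min, 1851 CPM in those of 410 min and 1459 CPM in those of 500 min.

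Marker genes of other tissues moved over the same stages. The 22 body wall muscle genes summed to between 3112 and 3555 CPM in libraries of 225 min and between 6638 and 9668 CPM in those of 330 min. Their sums were between 13350 and 15350 CPM in libraries of 410 min and between 13020 and 14690 CPM in those of 500 min. Of the 21 tested, 16 rose at 330 min against 225 min and 0 fell, beside 19.9% and 11.8% of all genes tested. The sum of 16 pharynx genes was 3608 to 4587 CPM in libraries of 500 min, against 3172 to 3586 CPM in those of 410 min, and peb-1 was the only one of them among the 31. Of 15 tested pan-neuronal genes 0 were highest at 410 min. At 330 min against 225 min 8 of 12 tested intestine genes, 10 of 14 excretory tube genes and 5 of 8 glia genes rose and 0 fell, beside the same 19.9% and 11.8%. Of 15 epidermal fate regulators 4 rose and 5 fell. Messages of the vitellogenins, yolk proteins made in the adult intestine, summed to 5.22 to 238 CPM at 410 min and reached 1095 CPM in another late library. The part of any of these in the courses of the 31 genes was not tested.

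The 31 genes were spread over the genome. In the WBcel235 annotation 11 lay on chromosome V, 6 on IV, 4 each on II, III and X, and 2 on I. Chromosome V held 35.5% of the 31 genes, 25.2% of all matched genes, 15.9% of those tested and 15.01% of the other genes highest at 410 min. Their median span was 2560 bp, against 3191 bp for the other genes highest at 410 min and 2661 bp for all genes tested, with a median of 6 exons in each set. The closest pair on a chromosome, T19C4.1 and T19B10.5, lay 83326 bp apart. dpy-10 lies next to the collagen gene dpy-2, which had 350 CPM at 500 min, against its highest mean of 870 CPM at 410 min. Of 28 tested coding neighbours of the 31 genes 5 were highest at 410 min (17.9%), against 8.55% for the neighbours of all genes tested.

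Since the strand of counting is not given, 11 genes that overlap another coding gene were uncertain (35.5%, against 31.4% of genes tested). Each of the 10 overlaps with a measured partner was on the opposite strand. The partner of C24B5.4, sphr-1, had its highest mean, 23.1 CPM, at 500 min, where C24B5.4 had 64.65 CPM. For T19C4.1, nhr-91, T01D3.3, tes-1 and F58F12.4 the partner had a mean under 10 CPM at every stage. dpy-10 overlaps T14B4.19, which was not analysed here. F54E2.2 lies inside ketn-1, which had 225 CPM at 500 min, against 145 CPM at 410 min, while F54E2.2 was lower at 500 min. The partner of F31C3.6, psf-2, had 8.39 CPM at 410 min and its highest mean at 120 min. The partners of strm-1 and F01G10.9, mrpl-30 and daf-14, had 34.8 and 55.5 CPM at 410 min and 44.8 and 57.9 CPM at 330 min.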

How the data were processed

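Messenger RNA was measured in 24 embryo libraries. The authors deposited raw counts for each gene, and the submitters' processing notes name HTSeq. Which aligner, build, annotation and strand setting they used is not given in the sources used. The counts stopped at 1023, and a 5-base molecular identifier has 1024 forms, though the labels do not state identifier counting. CPM were computed as count over the worm total of the library. The 92 spike-in RNA standards (2.36 to 10.2% of counts) stayed out of totals and tests, and 0 data columns were left unused. Of 20687 worm genes 20083 matched the WBcel235 annotation by identifier, and the other 604 held 0.423% of the counts.

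Tests used edgeR 4.0.16 in R 4.3.3. filterByExpr (minimum count 10, minimum total 15) kept 8279 genes, and a robust quasi-likelihood model of the 8 stages was fitted to all 24 libraries with TMM scaling, leaving 16 residual degrees of freedom. Tests were two-sided, the Benjamini-Hochberg adjustment ran over all genes tested, and a gene passed under 0.05. The labels do not say whether the 3 libraries of a stage came from separate cultures, so p-values measure the spread between these samples. The fit was also run on simulated counts, with each gene level across stages apart from changes set at 330 min. That differs from the 31 genes, of which 9 had 0 counts at 225 min, so nothing on their calls is drawn from it. Alternatives changed the scaling, the filter, the tool, the replicate block, the libraries used and the thresholds of the choice. Same-stage libraries differed by more than counting noise (chi-square per gene 1.94 to 6.06), so each counts as 1 sample. Same-numbered libraries of 330 and 225 min deviated together, with correlations of 0.36, 0.145 and 0.148, and each matched its own number best. The numbers may therefore pair libraries. The main fit left such pairing out, and the replicate block took it in. A count of 0 allows up to 3 counts, and bounds on folds use this floor. They cover counting error at the stage with 0 counts only, and take the counts of the other stage as observed. The 31 genes and all gene lists were chosen with earlier results of these data known. The genes named were those highest at 410 min, those at the extremes of the shares, ratios and log2 changes, those in a list and those beside a threshold, and the remaining ones of the 31 were added after their values were seen. No sequences were used.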

Additional observations from a re-analysis of the deposited data

How the results depend on the processing

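At 330 min against 225 min, 2625 genes changed and 974 of these fell. Under spike-in scaling the counts were 1232 and 105, and the replicate block called 3030 changed, with the same number of the 31 genes rising, 31. Leaving out libraries or series gave 1592 to 2468 changed, 1105 to 1554 higher and 487 to 914 lower, with the fewest without replicate 2, and 643 lower without replicate 3. Of the 31 genes, 28 to 30 then rose and 0 fell, and 27 rose in the fit to the 6 libraries of the contrast, where atf-8, fbxa-137, strm-1 and ztf-30 did not pass the filter on low counts. DESeq2 1.42.0 and spike-in scaling each called 30. Of 554 recomputed log2 changes 541 stayed on their side of the threshold, 13 did not (atf-8 under DESeq2, adjusted p = 0.0657, tes-1 under spike-in scaling, adjusted p = 0.0726, and the losses given above), and 0 reversed. The cause was not tested.

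At 225 min against 60 min, 4645 genes changed, and spike-in scaling gave 2816 changed with 1100 lower. Leaving out libraries gave 3437 to 4650 changed, 1680 to 2383 higher and 1757 to 2354 lower, with 6 to 9 of the 31 genes higher and 0 to 1 lower. The fit to 6 libraries called 2 higher and 0 lower. Same-numbered libraries correlated at 0.192, 0.089 and 0.082, and here too each matched its own number best, so pairing by number cannot be set aside. With the replicate block 4940 genes changed, 9 of the 31 higher and 1 lower.

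The number of genes chosen was 76 with a fold of 2, 13 with a fold of 5, 54 at 50 CPM, 20 at 200 CPM and 16 with 330 min in place of 270 min, of which 14 were among the 31. It was 29 to 37 under TMM or spike-in scaling, identifier collision correction, a pseudocount of 5 CPM or stage medians, and 28 to 38 with libraries left out. Under the 20 alternatives that kept the thresholds 21 genes were always chosen, and fbxa-137 was lost under 8, aat-1 under 7, dpy-10 under 6, F01G10.9 under 5 and atf-8 under 4. Whole-embryo counts of 3′ ends do not separate isoforms, and a library with 0 counts of a gene allows up to 3.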
